A study of Mus musculus with 20 samples.

Results

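The 37 genes of the mouse mitochondrial genome were followed through RNA sequencing of the hippocampus. Members were the rows of the count table whose symbol starts with mt-, 37 of 47729 rows, and these are also the 37 genes that the GENCODE M21 annotation places on the mitochondrial chromosome (MT). They comprised 13 messengers, 2 ribosomal RNAs and 22 transfer RNAs. The 20 libraries came from male C57BL/6 mice in 4 groups of 5, namely untreated controls of 5 months, treadmill-exercised mice of 5 months, controls of 20 months and treadmill-exercised mice of 20 months. The labels name no engineered allele and no agent for any group, and give no length or intensity of the exercise. Titles of the older animals contain a 24, but the age field gives 20 months, which was followed.

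Mitochondria keep a small circular genome that encodes core subunits of the respiratory chain and the ribosomal and transfer RNAs needed to translate them. All other subunits come from nuclear genes. Both strands are transcribed as long precursors. Excision of the transfer RNAs, which lie between most of the other genes, releases the messengers and ribosomal RNAs, and most of the released messengers then receive a short poly(A) tail. Heavy-strand transcripts hold nearly all messengers, while mt-Nd6 is the single messenger of the light strand. Neurons depend on this respiratory chain for the ATP that drives ion pumping at synapses. In tissue RNA of this kind, fewer cells of a type and less RNA per cell cannot be told apart.

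Total counts ran from 17653438 to 34495780 per library, and CPM below means counts per 1000000 of that total after the total was multiplied by the library's TMM scaling factor. Shares in percent are of the unscaled total. Defining markers of the hippocampus were present in every library, and the summed level of their 8 genes had group medians from 1139 to 1358 CPM. In 5 libraries the markers of choroid plexus, a tissue that lies in the neighbouring ventricles and makes cerebrospinal fluid, stood far above the rest. These were replicates 3 and 4 of the 5-month treadmill group and replicate 1 of each other group, with 3196 to 6821 CPM of the choroid plexus transcript Ttr against 4.96 to 137 CPM elsewhere. The mitochondrial share of counts ran from 4.15% to 6.22% in these 5 libraries, with a median of 4.41%, and from 4.22% to 6.57% in the other 15, with a median of 4.61%. Results were also computed without these 5 libraries, called choroid-rich below.

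Of the 37 members, 26 passed the filter on low counts, made up of both ribosomal RNAs, 7 of the 13 messengers and 17 of the 22 transfer RNAs. The other 11 held almost no counts. The messengers mt-Co2 and mt-Co3, for subunits of cytochrome c oxidase, mt-Atp8, for a subunit of ATP synthase, and mt-Nd4l, for a subunit of complex I, had 0 counts in all 20 libraries. So did the transfer RNAs mt-Tw, mt-Ty, mt-Td, mt-Tk and mt-Tg. Of 489376287 counts in all libraries together, a count of 0 allows up to 0.00613 assigned counts per 1000000 unscaled counts (3 counts, counting error only). This limits what was assigned to the gene, not its RNA level. The messenger mt-Atp6, for another subunit of ATP synthase, had 1 count in 1 library. The complex I messenger mt-Nd3 had 8 counts spread over 6 libraries.

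Sequences of 2 messengers without counts are shown, since 5 of the 6 at or near 0 have a nuclear copy that is nearly complete and identical. On GRCm38, mt-Nd4l lies at MT:9877-10173 on the plus strand and mt-Atp8 at MT:7766-7969 on the plus strand, both read 5′ to 3′ from the GENCODE M21 transcripts. Capitals mark the bases also covered by the next gene, mt-Nd4 and mt-Atp6 respectively.
mt-Nd4l: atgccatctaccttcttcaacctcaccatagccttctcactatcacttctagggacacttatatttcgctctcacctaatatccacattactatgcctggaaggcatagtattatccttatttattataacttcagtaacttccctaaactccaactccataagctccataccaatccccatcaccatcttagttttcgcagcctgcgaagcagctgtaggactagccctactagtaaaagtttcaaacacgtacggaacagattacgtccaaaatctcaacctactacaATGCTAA
mt-Atp8: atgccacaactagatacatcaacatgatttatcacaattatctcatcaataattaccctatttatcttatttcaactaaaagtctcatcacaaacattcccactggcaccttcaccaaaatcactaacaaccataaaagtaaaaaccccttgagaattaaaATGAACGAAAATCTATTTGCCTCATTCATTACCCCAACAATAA

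A run of 7 annotated pseudogenes lies on the minus strand of chromosome 1, between 24611535 and 24616197 of GRCm38. Each matched part of a member, and the matches lay between MT 6390 and 11042. Sequence between the annotated copies was not compared. The aligned bases were identical in 6 of the 7 pairs. Gm28661 matched 681 of the 684 bases of mt-Co2, Gm10925 678 of the 681 bases of mt-Atp6, and Gm28437 783 of the 784 bases of mt-Co3. Gm28438 matched 342 of the 348 bases of mt-Nd3, Gm10222 294 of the 297 bases of mt-Nd4l, and Gm28439 the first 876 of the 1378 bases of mt-Nd4. The seventh, Gm29216, matched the last 483 of the 1545 bases of mt-Co1 with 1 difference, A1066T, counted from 1 at the first base of mt-Co1. The stretch that holds it, at MT:6390-6449 on the plus strand, is shown in both genes with the differing base in capitals.
mt-Co1: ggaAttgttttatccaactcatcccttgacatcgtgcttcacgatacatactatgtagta
Gm29216: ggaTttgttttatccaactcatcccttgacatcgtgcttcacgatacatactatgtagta

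The members at or near 0 counts fell largely between these end points, called the copied stretch although only its annotated parts were compared. Of the 11 members that lie wholly between MT 6390 and 11042, 9 did not pass the filter, and mt-Ts1 and mt-Tr did. Of the 24 members wholly outside it, 22 passed, and the exceptions were the transfer RNAs mt-Tw and mt-Ty. The messengers mt-Co1 and mt-Nd4 straddle its ends, and both passed. This grouping was drawn after the counts were seen and carries no test.

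The share of 50-base words that a member had in common with annotated nuclear transcripts, on either strand, described the pattern for the messengers. It was 100% for mt-Co2, 99.9% for mt-Co3, 99.5% for mt-Atp6, 98.8% for mt-Nd4l and 97.99% for mt-Nd3. It was 62.2% for mt-Nd4, 51.1% for mt-Co1, 8.19% for mt-Nd2, 7.61% for mt-Nd5 and 1.04% for mt-Rnr2. The other messengers, mt-Rnr1 and the 22 transfer RNAs shared none. Of the 11 members at or near 0 counts, 6 did not follow it and shared 0% of their words, namely mt-Atp8 and the transfer RNAs mt-Tw, mt-Ty, mt-Td, mt-Tk and mt-Tg. The place of mt-Atp8 in the copied stretch falls mostly between the annotated copies of mt-Co2 and mt-Atp6. Those of mt-Td, mt-Tk and mt-Tg also fall between annotated copies, as do most bases of mt-Ts1 and mt-Tr, which had counts. Words were sought in annotated transcripts only, and the genome sequence there was not used here. Their 0% therefore does not show that they lack a nuclear copy.

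Among the nuclear copies themselves, Gm28438 held 209 to 612 counts per library, a median of 13.9 CPM. The other 6 on chromosome 1 held 0 to 15 counts per library. The sources used here do not say how reads matching several places were counted, and the part of that step in the counts of 0 was not tested. No RNA level is therefore given for the 5 messengers that share nearly all their words, nor for mt-Atp8.

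**Figure D1:**
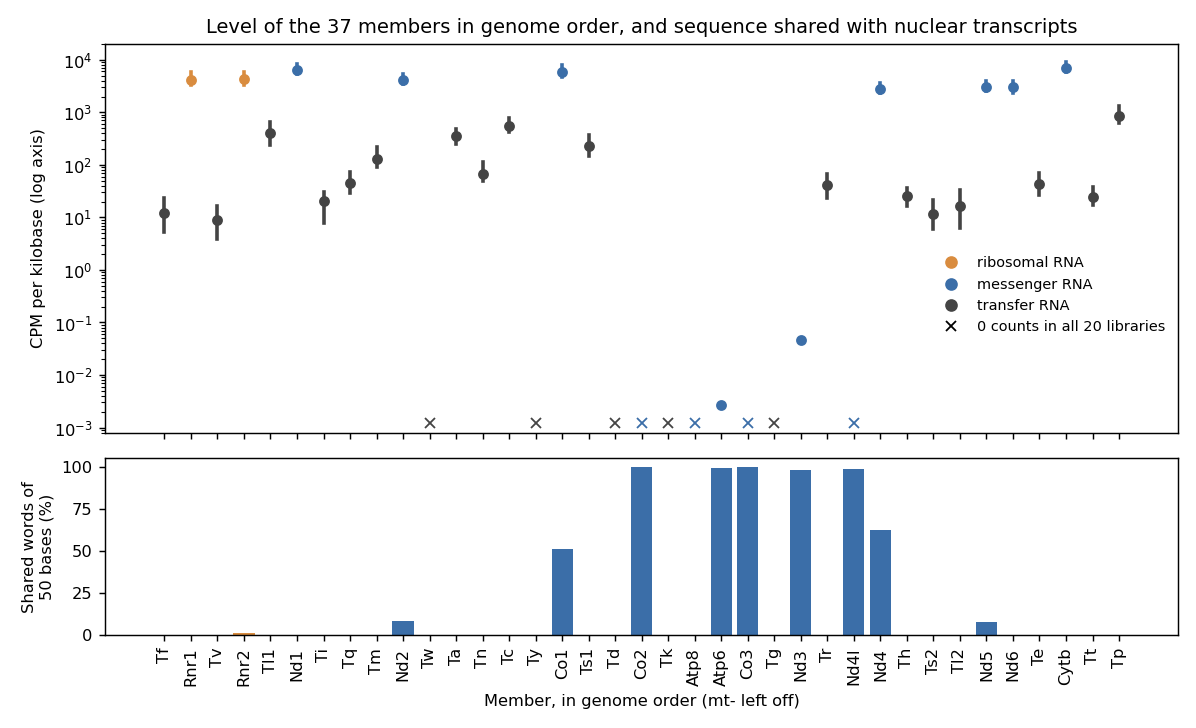
Top, CPM per kilobase of annotated length (log axis) for the 37 members in genome order; points are means over 20 libraries, lines run from the lowest to the highest library, and crosses mark members with 0 counts. Bottom, percent of each member's 50-base words found in nuclear transcripts; mt-Co2, mt-Atp6, mt-Co3, mt-Nd3 and mt-Nd4l reach 97.99% to 100% and have almost no counts.

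Among the members that were counted, mt-Co1, the catalytic core of cytochrome c oxidase, had the highest mean level at 8934 CPM. It was followed by mt-Cytb, the cytochrome b of complex III, at 7874 CPM, the large ribosomal RNA mt-Rnr2 at 6803 CPM, and mt-Nd1 of complex I at 6037 CPM. Next came the complex I messengers mt-Nd5 at 5575 CPM and mt-Nd2 at 4199 CPM, the small ribosomal RNA mt-Rnr1 at 3996 CPM, mt-Nd4 at 3833 CPM and mt-Nd6 at 1545 CPM. The order of mt-Co1 over mt-Cytb and of mt-Cytb over mt-Rnr2 was seen in 20 of 20 libraries each. Neighbours lower down changed places, with mt-Nd1 above mt-Nd5 in 17 libraries and mt-Rnr1 above mt-Nd4 in 15. Because the library kit selects poly(A) RNA, this order of counts need not be the order of the RNAs themselves.

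Per kilobase of annotated length the order differed. The level of mt-Cytb was 6882 CPM per kilobase (SD 931 over 20 libraries), that of mt-Nd1 6308 (SD 973) and that of mt-Co1 5783 (SD 965). Differences between these neighbours were smaller than the spread over libraries, yet mt-Cytb lay above mt-Nd1 in 19 of 20 libraries and mt-Nd1 above mt-Co1 in 20. Both ribosomal RNAs followed, mt-Rnr2 at 4300 CPM per kilobase and mt-Rnr1 at 4184, with mt-Nd2 at 4046. The lowest messengers were mt-Nd5 at 3056, mt-Nd6 at 2976 and mt-Nd4 at 2781 CPM per kilobase. Dividing all counts of a gene by only the length whose 50-base words no nuclear transcript shares gave 12222 CPM per kilobase for mt-Co1, 7635 for mt-Nd4, 7190 for mt-Cytb and 6649 for mt-Nd1. That scale assumes that the shared part of a gene gave no counts, which was not tested, and the smaller divisor alone sets the rise of mt-Co1 and mt-Nd4.

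Transfer RNA genes, which encode the adaptors of mitochondrial translation, held far fewer counts. The proline transfer RNA gene mt-Tp led with a mean of 55.9 CPM, followed by mt-Tc for cysteine at 36.4, mt-Tl1 for a leucine at 30.1, mt-Ta for alanine at 24.0 and mt-Ts1 for a serine at 16.02 CPM. The remaining 12 with counts reached at most 9.02 CPM. Of these 5 leading genes, 4 lie on the light strand, mt-Tl1 being the exception. These genes are 59 to 75 bases long. Reads from mature transfer RNAs, from uncut precursors and from the opposite strand cannot be told apart in libraries that do not mark strand.

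Together the 37 members took 4.90% of counts on average over the 20 libraries, from 4.15% to 6.57%. Messengers held 77.6% of the members' counts, ribosomal RNAs 22.01% and transfer RNAs 0.394%. These are parts of the assigned counts, to which 6 of the 13 messengers added almost nothing. In 5-month controls the share was 6.22%, 4.22%, 4.32%, 4.50% and 4.32% in replicates 1 to 5. In 5-month treadmill mice it was 5.23%, 6.57%, 4.26%, 4.15% and 4.50%. One library in the first of these groups and one in the second lay above 6%, and the rest of both groups overlapped. The 20-month controls measured 5.19%, 6.25%, 4.56%, 4.96% and 4.30%. The 20-month treadmill mice measured 4.41%, 4.80%, 4.61%, 4.74% and 5.95%. Again a single library stood highest in each group, and the groups overlapped. Counting error is small beside these differences, since the widest 95% Wilson interval reaches 0.0109 percentage points to either side.

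**Figure D2:**
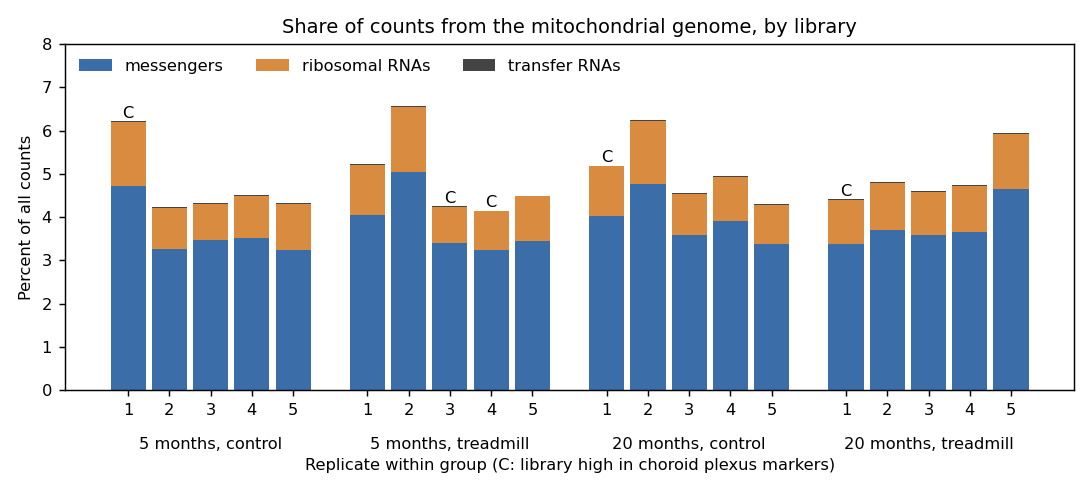
Percent of all counts taken by mitochondrial messengers, ribosomal RNAs and transfer RNAs (a thin line on top), stacked for each of the 20 libraries; C marks the 5 libraries high in choroid plexus markers. Each group holds 1 library at 5.95% or above, and the others lie between 4.15% and 5.23%.

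The group means were 4.72% ± 0.846 (SD, n = 5) in 5-month controls, 4.94% ± 1.003 in 5-month treadmill mice, 5.05% ± 0.753 in 20-month controls and 4.90% ± 0.607 in 20-month treadmill mice. Differences between the 4 means held 2.63% of the variance of the share, and differences among libraries of the same group held 97.4%. The treadmill difference in share at 5 months was 0.223 percentage points, and leaving out the choroid-rich libraries it was 1.09. Without replicate 2 of the 5-month treadmill group alone it was -0.184, so its sign rested on that library. Leaving out other single libraries, it reached up to 0.599. Once the choroid-rich libraries were left out, 3 treadmill libraries stood against 4 controls. The lowest treadmill library, at 4.496%, and the highest control, at 4.502%, were level within counting error. At 20 months the treadmill difference was -0.148 percentage points. Leaving out single libraries, it ran from -0.411 to 0.151, the highest being without replicate 2 of the controls. The age difference in controls was 0.332 percentage points, which was 0.0333 without replicate 2 of the 20-month controls and 0.708 without replicate 1 of the 5-month controls. In treadmill mice it was -0.0386, and from -0.301 to 0.368 on leaving out single libraries, the highest being without replicate 2 of the younger mice. Being a sum over members chosen with results known, the share is given without a p-value.

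Libraries with a high share were high in every abundant member at once. Relative to each member's mean over the 20 libraries, all 9 abundant members (both ribosomal RNAs and the 7 messengers) were 0.36 to 0.49 higher on the log2 scale in replicate 2 of the 5-month treadmill group. They were higher by 0.21 to 0.44 in replicate 1 of the 5-month controls, by 0.25 to 0.45 in replicate 2 of the 20-month controls and by 0.23 to 0.41 in replicate 5 of the 20-month treadmill group. At the other end, all 9 lay below their means in 8 libraries, with medians down to -0.23 in replicate 4 of the 5-month treadmill group. Counts of mt-Nd6 and of the heavy-strand messengers were high together in these 4 libraries. Strand is not marked, so reads of mt-Nd6 cannot be told apart from heavy-strand precursor reads over the same bases.

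**Figure D3:**
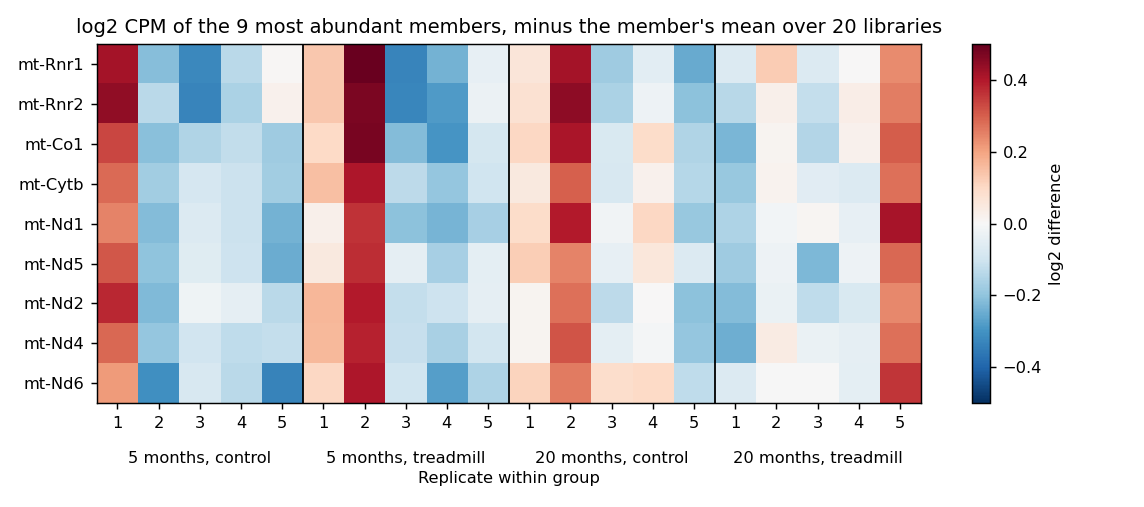
Colour map of the log2 CPM of the 9 most abundant members (rows) in each library (columns, by group), minus the member's mean over all 20 libraries; red is above and blue below the mean. The 4 libraries with the highest share are red in all 9 rows, by 0.21 to 0.49.

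Each member's part in the variance of the share was measured as the covariance of its own share with the total, divided by the variance of the total, so that the parts add up to 100%. The messengers carried 74.2%, the ribosomal RNAs 25.3% and the transfer RNAs 0.480%, close to their parts of the counts. The gene mt-Co1 carried most, 20.2% of the variance with 18.3% of the counts, and mt-Rnr2 carried 16.1% with 13.9%. Then came mt-Cytb with 14.5%, mt-Nd1 with 12.2%, mt-Nd5 with 9.66%, mt-Rnr1 with 9.24%, mt-Nd2 with 7.74%, mt-Nd4 with 7.01% and mt-Nd6 with 2.86%. The ratio of variance to counts was 1.16 for mt-Rnr2, 1.13 for mt-Rnr1 and 1.11 for mt-Co1, and 0.8505 to 0.986 for the other 6 abundant members. No single member carried the differences between libraries. Among the abundant members, the ribosomal RNAs and mt-Co1 swung slightly more than the rest.

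Within groups the SD of log2 CPM was 0.26 and 0.27 for the ribosomal RNAs and ran from 0.19 to 0.24 over the 7 messengers, with mt-Co1 highest. Its median over the 17 transfer RNAs was 0.35. For comparison, the median SD was 0.17 over all 16945 genes tested, 0.11 over the 2291 nuclear genes averaging 100 CPM or more, and 0.15 over 75 nuclear genes for respiratory chain subunits. Each of the 9 abundant mitochondrial RNAs lay above all 3 of these medians. The nuclear genes were not matched to them in abundance.

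Within the mitochondrial counts the proportions were steadier than the total. The ribosomal RNAs held 21.98% of the members' counts on average, from 19.2% to 24.5%. The ratio of mt-Rnr2 to mt-Rnr1 counts was 1.70 on average, from 1.59 to 1.79. The gene mt-Co1 held 23.4% of messenger counts, from 22.1% to 24.7%. The light-strand messenger mt-Nd6 held 3.87% ± 0.160 of messenger counts (SD, n = 5) in 5-month controls, 4.02% ± 0.132 in 5-month treadmill mice, 4.17% ± 0.224 in 20-month controls and 4.21% ± 0.175 in 20-month treadmill mice. These 4 groups overlapped. Without strand, counts of mt-Nd6 may include heavy-strand reads over the same bases.

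The values of the main members follow by library, in the order of replicates 1 to 5. The small ribosomal RNA mt-Rnr1 measured 5255, 3404, 3148, 3585 and 3954 CPM in 5-month controls and 4331, 5550, 3136, 3345 and 3832 CPM in 5-month treadmill mice. At 20 months it measured 4112, 5264, 3487, 3804 and 3310 CPM in controls and 3753, 4305, 3756, 3945 and 4637 CPM in treadmill mice. The groups overlapped, and the highest library of each was the one with the highest share.

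For the large ribosomal RNA mt-Rnr2 the 5-month values were 9119, 6104, 5336, 6017 and 6804 CPM in controls and 7361, 9300, 5353, 5508 and 6572 CPM in treadmill mice. The 20-month values were 7073, 9153, 6010, 6581 and 5813 CPM in controls and 6094, 6824, 6174, 6853 and 8017 CPM in treadmill mice. The same 4 libraries were highest as for mt-Rnr1.

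The cytochrome c oxidase messenger mt-Co1 measured 11127, 7640, 7955, 8111 and 7813 CPM in 5-month controls and 9467, 12265, 7593, 7198 and 8312 CPM in 5-month treadmill mice. In 20-month controls it measured 9487, 11720, 8375, 9394 and 7955 CPM, and in 20-month treadmill mice 7531, 8920, 7976, 8958 and 10890 CPM. The span within each group exceeded any difference between group means, which ran from 8529 to 9386 CPM.

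The complex III messenger mt-Cytb stood at 9511, 6917, 7373, 7244 and 6929 CPM in 5-month controls and at 8666, 10331, 7132, 6839 and 7294 CPM in 5-month treadmill mice. Its 20-month values were 8069, 9617, 7391, 7922 and 7074 CPM in controls and 6841, 7909, 7514, 7452 and 9447 CPM in treadmill mice. All 4 groups overlapped.

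The complex I messenger mt-Nd1 measured 7094, 5141, 5694, 5539 and 5065 CPM in 5-month controls and 6079, 7669, 5179, 5086 and 5319 CPM in 5-month treadmill mice. At 20 months the values were 6370, 7874, 5908, 6418 and 5242 CPM in controls and 5372, 5918, 6022, 5807 and 7945 CPM in treadmill mice. All 4 groups overlapped here as well.

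For mt-Nd5, a membrane subunit of the proton-pumping arm of complex I, the 5-month values were 6857, 4813, 5302, 5150 and 4652 CPM in controls and 5720, 7144, 5359, 4928 and 5343 CPM in treadmill mice. The 20-month values were 6031, 6561, 5376, 5755 and 5276 CPM in controls and 4891, 5430, 4729, 5433 and 6750 CPM in treadmill mice. No group stood apart.

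The complex I messenger mt-Nd2 measured 5413, 3570, 4104, 4038 and 3796 CPM in 5-month controls and 4672, 5485, 3836, 3873 and 4038 CPM in 5-month treadmill mice. At 20 months it measured 4202, 5038, 3804, 4173 and 3616 CPM in controls and 3586, 4068, 3818, 3946 and 4913 CPM in treadmill mice. Here too the highest library of each group was the one with the highest share.

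The light-strand messenger mt-Nd6 stood at 1774, 1237, 1446, 1392 and 1213 CPM in 5-month controls and at 1643, 2023, 1428, 1264 and 1373 CPM in 5-month treadmill mice. Its 20-month values were 1652, 1831, 1625, 1640 and 1400 CPM in controls and 1457, 1526, 1529, 1480 and 1962 CPM in treadmill mice. All 4 groups overlapped, and the lowest 20-month control, at 1400 CPM, lay inside the range of the 5-month controls. These counts too may include heavy-strand reads, since strand is not marked.

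Whether treadmill exercise changed mitochondrial RNA was asked at each age. At 5 months 0 of the 26 members tested passed the threshold of an adjusted p of 0.05 in edgeR's quasi-likelihood test, and so did 0.0% of the 16945 genes tested. One member, mt-Th, and 295 of all genes had an unadjusted p below 0.05. With DESeq2, 0 members were called. The 7 messengers had log2 fold changes from 0.04 (mt-Nd1) to 0.13 (mt-Nd6), with a median of 0.08 where the median of all genes was -0.0015. Their 95% intervals all spanned 0, for mt-Co1 from -0.23 to 0.37 and for mt-Cytb from -0.17 to 0.34. Leaving out the choroid-rich libraries, the messengers' median was 0.30, and without replicate 2 of the treadmill group alone it was -0.02. The ribosomal RNAs differed by 0.06 (mt-Rnr1) and 0.03 (mt-Rnr2). In the same comparison all 18 choroid plexus markers had positive fold changes, with a median of 1.03, and so had all 5 red cell markers, with a median of 0.94, and 0 of either list were called. Rmrp and Rpph1, small RNAs that lack poly(A) tails, differed by 3.02 (SE 0.73) and 2.42 (SE 0.85), both with an adjusted p of 0.99991 in edgeR's test and unadjusted p-values of 0.000546 and 0.0106. The part of these in the mitochondrial values was not tested.

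At 20 months 0 of 26 members and 0.0% of all genes were called by edgeR, with 0 members and 309 genes at an unadjusted p below 0.05, and 0 members were called by DESeq2. The messengers' log2 fold changes ran from -0.09 (mt-Nd5) to -0.02 (mt-Nd4), with a median of -0.03 beside 0.0039 over all genes. Without replicate 2 of the controls that median was 0.04. For mt-Co1 the interval was -0.38 to 0.22. The member with the smallest p was mt-Tp, at -0.15 (SE 0.15, edgeR's adjusted p = 0.99995). All 6 ependymal markers had negative fold changes in this comparison, with a median of -0.58 and 0 called. Their part in the mitochondrial values was not tested.

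The difference between the treadmill effects at 20 and 5 months was tested as an interaction. Again 0 members and 0.0% of genes were called by edgeR, with 1 member (mt-Th) and 328 genes at an unadjusted p below 0.05, and 0 members by DESeq2. The messengers' interaction terms ran from -0.18 (mt-Nd5) to -0.07 (mt-Nd1), and their intervals all spanned 0. Averaged over both ages, the treadmill effect called 0 members and 0.0% of genes, with 0 members and 274 genes at an unadjusted p below 0.05, and 0 members by DESeq2. Messenger values of that average lay between -0.0059 (mt-Co1) and 0.05 (mt-Nd6).

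Age was compared in controls first. Of the 26 members 0 were called by edgeR, while 0.0708% of all genes were, and 1 member (mt-Ts1) and 1293 genes had an unadjusted p below 0.05. DESeq2 called 0 members. The messengers' log2 fold changes from 5 to 20 months ran from -0.0061 (mt-Nd2) to 0.21 (mt-Nd6), with a median of 0.12 beside 0.00047 over all genes. That median was 0.04 without replicate 2 of the 20-month controls, 0.07 without replicate 5 and 0.23 without replicate 1 of the 5-month controls. The value for mt-Nd6 was 0.21 (SE 0.12, interval -0.05 to 0.46, edgeR's adjusted p = 0.735). The ribosomal RNAs differed by 0.05 each.

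In treadmill mice the age comparison called 0 members by edgeR and 0.384% of all genes, with 1 member (mt-Ts2) and 2113 genes at an unadjusted p below 0.05, and 0 members by DESeq2. Messenger values ran from -0.11 (mt-Nd2) to 0.08 (mt-Nd1), with a median of -0.04 beside 0.00040 over all genes. Without replicate 2 of the 5-month treadmill group that median was 0.05. This comparison and the treadmill comparison at 5 months share the 5-month treadmill libraries, so their values are not independent. All 18 choroid plexus markers had negative fold changes with age here, with a median of -1.05. So had all 6 ependymal markers, with a median of -0.61, and 0 of either list were called. The median of Rmrp and Rpph1 was -1.99, with 0 called. The part of these in the mitochondrial values was not tested.

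Averaged over control and treadmill mice, age called 1.89% of all genes and 0 members by edgeR, with mt-Ts1, mt-Ts2 and 3019 genes at an unadjusted p below 0.05. DESeq2 called 1 member, mt-Ts1. In each age comparison DESeq2 also called more of all genes than edgeR did, as counted in the last section. The messengers lay between -0.06 (mt-Nd2) and 0.12 (mt-Nd6), with a median of 0.02 beside 0.0017 over all genes. For mt-Co1 the average age difference was 0.06 (interval -0.15 to 0.27), and for mt-Rnr2 0.02 (interval -0.21 to 0.26). Under median-of-ratios, upper-quartile and nuclear-only scaling the messengers' medians kept their sign in all 7 comparisons.

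**Figure D4:**
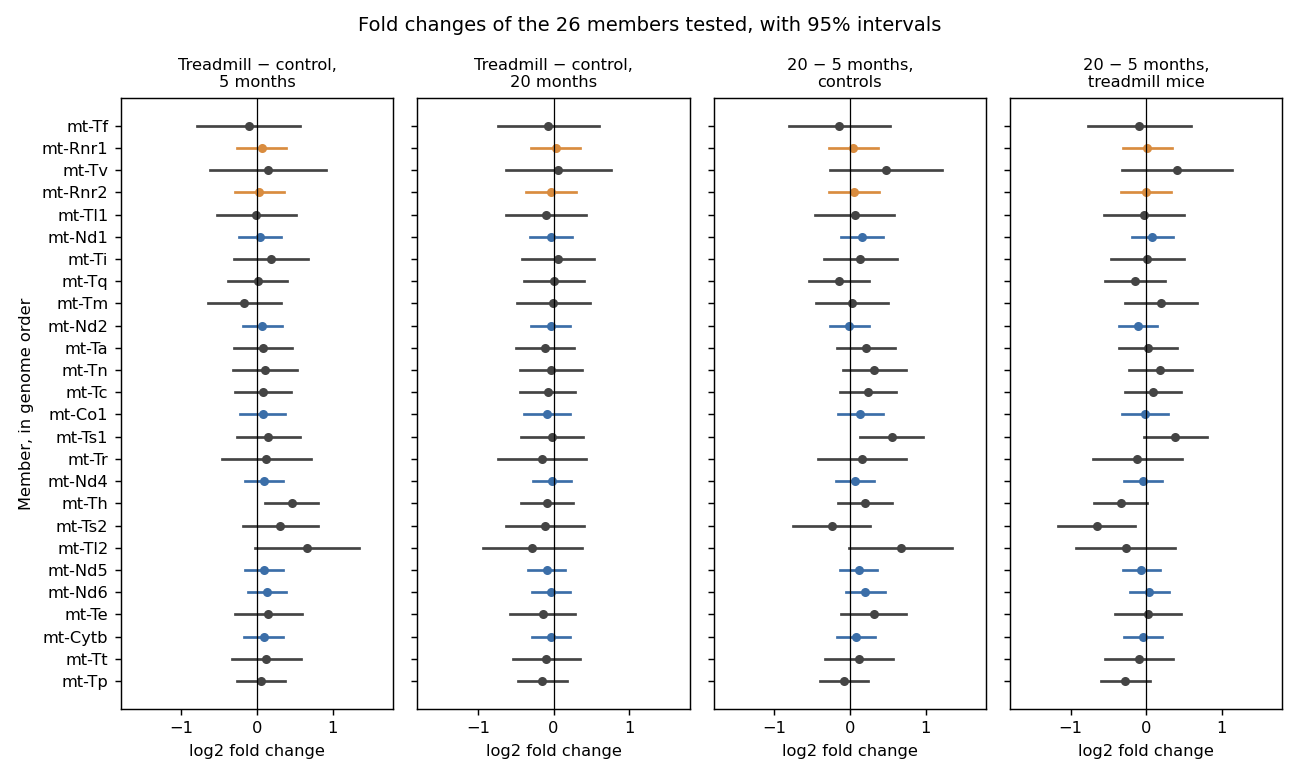
Log2 fold changes (points) with 95% intervals (lines) of the 26 members tested, in genome order, for treadmill against control at each age and for 20 against 5 months in controls and in treadmill mice; orange is ribosomal, blue messenger and grey transfer RNA. Intervals of all messengers and ribosomal RNAs span 0, and those that do not belong to mt-Th (treadmill, 5 months), mt-Ts1 (age, controls) and mt-Ts2 (age, treadmill mice).

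The members nearest to a call were transfer RNA genes, whose GRCm38 sequences are shown for their length and for the bases they share with neighbours. Each is read 5′ to 3′ along its own strand from GENCODE M21, and capitals mark bases also covered by another member. The gene mt-Ts1 lies at MT:6870-6938 on the minus strand and shares 3 bases with mt-Co1. Positions of the others are MT:11546-11612 on the plus strand for mt-Th, MT:11613-11671 on the plus strand for mt-Ts2, which shares 1 base with mt-Tl2, and MT:15356-15422 on the minus strand for mt-Tp.
mt-Ts1: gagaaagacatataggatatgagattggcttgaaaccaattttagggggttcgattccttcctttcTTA
mt-Th: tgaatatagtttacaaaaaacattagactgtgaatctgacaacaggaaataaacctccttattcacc
mt-Ts2: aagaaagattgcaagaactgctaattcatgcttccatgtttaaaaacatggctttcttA
mt-Tp: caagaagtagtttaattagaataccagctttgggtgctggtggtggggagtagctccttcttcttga

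The serine transfer RNA gene mt-Ts1 measured 13.7, 12.5, 12.8, 12.9 and 12.03 CPM in 5-month controls and 21.2, 25.2, 16.9, 15.7 and 14.7 CPM in 20-month controls. Every 20-month control lay above every 5-month control. In treadmill mice it measured 17.0, 22.2, 10.9, 10.1 and 9.99 CPM at 5 months and 14.6, 19.1, 19.2, 16.4 and 23.3 CPM at 20 months, and these groups overlapped through replicates 1 and 2 of the younger mice. The log2 age difference was 0.55 in controls (SE 0.20, adjusted p = 0.499) and 0.39 in treadmill mice (SE 0.20, adjusted p = 0.438) in edgeR's test. The average was 0.47 (SE 0.14, interval 0.18 to 0.76), with an adjusted p of 0.0896 that missed the threshold. Over the alternatives tried that adjusted p ran from 0.0163 to 0.237. It passed with DESeq2, at 0.0257, and in edgeR's test without replicate 2 of the 5-month treadmill group, at 0.0163. Because strand is not marked, reads of mt-Ts1 cannot be told apart from heavy-strand precursor reads that run past the end of mt-Co1, whose own average age difference was 0.06.

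The histidine transfer RNA gene mt-Th rested on 27 to 84 counts per library. It measured 2.08, 1.10, 1.403, 1.401 and 1.51 CPM in 5-month controls and 2.44, 2.22, 1.92, 1.49 and 2.08 CPM in 5-month treadmill mice. At 20 months the values were 1.78, 1.66, 1.79, 1.44 and 1.89 CPM in controls and 1.56, 1.62, 1.21, 1.83 and 1.89 CPM in treadmill mice. The treadmill difference was 0.46 at 5 months (SE 0.17, unadjusted p = 0.0133, adjusted p = 0.99991 in edgeR's test) and -0.08 at 20 months (SE 0.17). The interaction was -0.54 (SE 0.24, edgeR's adjusted p = 0.99994), and the groups overlapped at both ages.

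The second serine gene, mt-Ts2, rested on 8 to 39 counts per library. Its 5-month values were 0.987, 0.654, 0.662, 0.601 and 0.705 CPM in controls and 0.900, 1.25, 0.915, 0.639 and 0.635 CPM in treadmill mice. Its 20-month values were 0.637, 0.687, 0.633, 0.539 and 0.535 CPM in controls and 0.357, 0.739, 0.392, 0.866 and 0.5003 CPM in treadmill mice. The age difference in treadmill mice was -0.65 (SE 0.24, adjusted p = 0.266 in edgeR's test), and the average over both was -0.45 (SE 0.17, adjusted p = 0.174). These groups overlapped.

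The proline gene mt-Tp measured 87.7, 49.5, 49.96, 55.4 and 48.7 CPM in 5-month controls and 55.5, 70.4, 50.3, 56.9 and 68.5 CPM in 5-month treadmill mice. At 20 months it measured 54.5, 67.7, 50.7, 52.0 and 51.2 CPM in controls and 45.9, 42.6, 45.5, 51.0 and 64.1 CPM in treadmill mice. Replicate 1 of the 5-month controls stood highest of all libraries. The average age difference was -0.18 (SE 0.11, adjusted p = 0.425 in edgeR's test), opposite in sign to that of mt-Ts1.

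**Figure D5:**
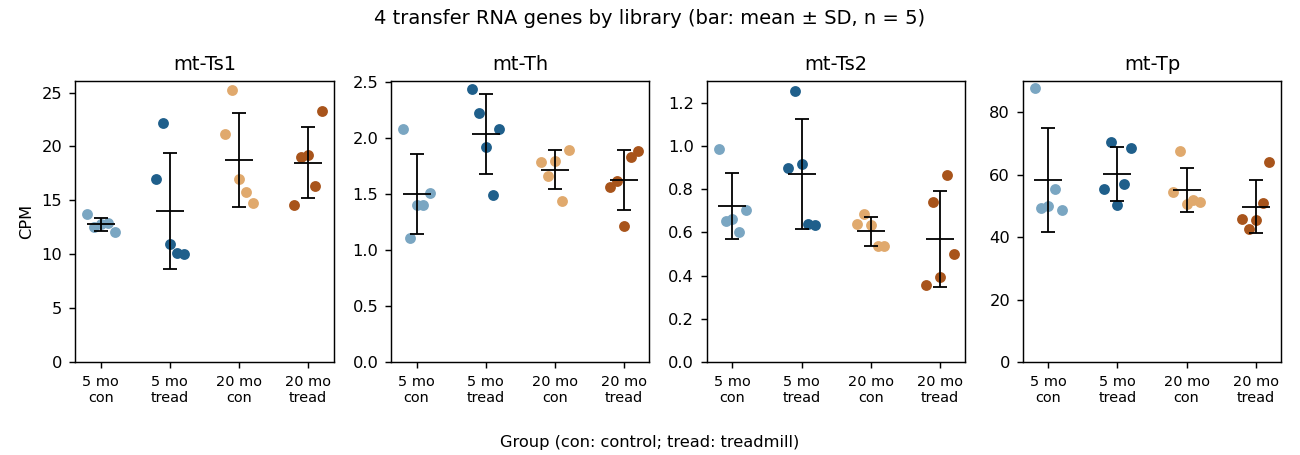
CPM (linear axes from 0) of mt-Ts1, mt-Th, mt-Ts2 and mt-Tp in each library, by group, with the mean ± SD of 5 libraries. For mt-Ts1 the 20-month controls, from 14.7 to 25.2 CPM, all lie above the 5-month controls, from 12.03 to 13.7 CPM. The 20-month treadmill mice, from 14.6 to 23.3 CPM, overlap the 5-month treadmill mice, from 9.99 to 22.2 CPM.

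Nuclear genes that build, copy and read the mitochondrial genome were described from lists, with the average age effect as the comparison in which most genes were called (1.89% of all). In that comparison 17.8% of all genes tested had an unadjusted p below 0.05 in edgeR's test, the share to set beside the counts below. Of 75 nuclear subunits of complexes I to V tested, 0 were called by edgeR, 5 had an unadjusted p below 0.05, and the median log2 fold change was 0.02. The smallest p-values by complex belonged to Ndufv1 (0.10) and Ndufs7 (0.12) in complex I, Sdhb (0.05) and Sdha (0.02) in complex II and Uqcrc1 (0.10) and Uqcrfs1 (0.08) in complex III. In complex IV they belonged to Cox5b (0.12) and Cox5a (0.08), and in the ATP synthase to Atp5g1 (-0.13) and Atp5d (0.06). All of these missed the threshold, Uqcrc1 with an adjusted p of 0.0844.

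Of 10 genes for transcription of the mitochondrial genome, edgeR called 0, and 0 had an unadjusted p below 0.05. Tfam, which packages mitochondrial DNA and starts its transcription, differed by 0.06 (SE 0.05) and Polrmt, the mitochondrial RNA polymerase, by 0.03 (SE 0.05), while the smallest p-values belonged to Tfb1m (-0.11) and Mterf1b (-0.18). Of 19 genes for maturation and stability of mitochondrial RNA, edgeR called 0, with 2 at an unadjusted p below 0.05. Lrpprc and Slirp, partners that stabilise the messengers, differed by 0.01 (SE 0.07) and -0.01 (SE 0.08), and the smallest p-values belonged to Fastkd2 (-0.14, adjusted p = 0.0608 in edgeR's test) and Tbrg4 (0.10). Of 8 replication genes edgeR called 0, with 0 at an unadjusted p below 0.05. Polg, the mitochondrial DNA polymerase, differed by 0.01 (SE 0.04), and the smallest p-values belonged to Mgme1 (-0.12) and Twnk (-0.08). Of 10 genes of the mitochondrial unfolded protein response edgeR called 0, with 3 at an unadjusted p below 0.05, the smallest p-values belonging to Yme1l1 (-0.10) and Hspd1 (-0.07).

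Of 11 regulators of mitochondrial biogenesis 1 was called. Gabpa, the DNA-binding subunit of a factor that activates many nuclear genes of respiration, measured 35.5 ± 3.10 CPM (SD, n = 5) in 5-month controls, 38.3 ± 1.27 in 5-month treadmill mice, 32.2 ± 2.06 in 20-month controls and 33.0 ± 2.17 in 20-month treadmill mice. It fell by 0.18 with age on the log2 scale (SE 0.04, adjusted p = 0.0426 in edgeR's test). That call was lost in 17 of 27 alternatives, with adjusted p-values from 0.00974 to 0.0860, and leaving out the choroid-rich libraries it was 0.0796. Ppargc1a, the coactivator that drives mitochondrial biogenesis, differed by -0.02 (SE 0.05), and Ppargc1b by -0.13 (SE 0.07). For the treadmill effect at 5 months the median over the 75 nuclear respiratory subunits was 0.03 and at 20 months -0.0017, with 0 called at either age.

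Markers of other cell types were measured beside these values. The 9 neuronal markers summed to 12041 to 14474 CPM over all libraries, with group medians from 13099 to 13735 CPM. Astrocyte markers summed to 4567 to 6123 CPM, oligodendrocyte markers to 3477 to 6931, microglial markers to 266 to 385, endothelial markers to 128 to 213, ependymal markers to 7.30 to 45.2 and red cell markers to 23.3 to 151 CPM. In the average age effect 1 of these markers was called, the microglial complement gene C1qa, at 0.44 (SE 0.09, adjusted p = 0.0149 in edgeR's test), and all 6 microglial markers had positive fold changes. The 18 choroid plexus markers had a median of -0.45 with 0 called. RNAs without poly(A) tails were measured as well, but their counts do not show how strictly tailed RNA was selected. The sources used here do not say how reads matching several places were counted. Of the 8 measured, Rn7sk, Rn7s1, Rn7s2, Rny1 and Rny3 had 0 counts in every library, and only 2 passed the filter. Rmrp, the RNA of an RNA-processing enzyme, ran from 0.0362 to 5.43 CPM and Rpph1, the RNA of ribonuclease P, from 0.127 to 6.60 CPM, both highest in replicate 4 of the 5-month treadmill group. In that library the mitochondrial share was the lowest of all, 4.15%, while replicate 2 of the same group, with 3.86 CPM of Rmrp, had the highest, 6.57%. The part of these markers in the mitochondrial values was not tested.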

How the data were processed

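Hippocampal RNA of 20 mice was sequenced from TruSeq RNA v2 libraries, per the labels' protocols, a kit that selects poly(A) RNA and does not mark strand. The authors deposited whole-number read counts per gene. Per the submitters' processing notes, bcl2fastq 1.8.2, STAR 2.4.1d, featureCounts 1.4.6-p4 and GRCm38 were used, with no order or settings named. The deposited RPKM table was not used. Symbols of 47224 of the 47729 rows came from a gene name table, and 505 rows had none. Positions and sequences came from the GENCODE M21 transcripts on GRCm38.

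Genes passing edgeR's filterByExpr were tested in R 4.3.3 with edgeR 4.0.16 (TMM scaling, robust quasi-likelihood test, 4 group means over 20 libraries, Benjamini-Hochberg adjustment over 16945 genes, limma 3.58.1 loaded). DESeq2 1.42.0, other scalings and filters, and fits without single libraries or without the 5 libraries with a choroid plexus score above 2 were alternatives. The edgeR step was tested on simulated data. Libraries of a group differed by more than counting noise (chi-square per degree of freedom 6.03 to 54.1). Replicate numbers follow accession order and pair nothing. Apart from the titles, nothing in the labels ties each library to its own animal. The p-values therefore reflect only how these libraries spread, and that spread may be technical.

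Values by library are given for both ribosomal RNAs, the 3 messengers with the highest mean CPM, the next 2 members by variance carried, mt-Nd6, the leading transfer RNA and the members with the smallest p. Of the nuclear lists, called genes, the 2 smallest p-values and 6 fixed genes are named. The members, lists and rules were chosen with earlier results of these data known. Gm10222 was added to the nuclear copies after values were seen.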

Additional observations from a re-analysis of the deposited data

Results flagged for a closer look

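In groups of 5 libraries, the gap of the highest or lowest library to its nearest neighbour was compared with the range of the group (Dixon's critical value 0.71). Of 120 groups of values tested, 19 held such a library. Chance flags about 1 in 20, and these tests are not independent, because the members moved together within libraries.

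Replicate 1 of the 5-month controls stood apart in most of them. Its mitochondrial share of counts was 6.22% (others 4.22% to 4.50%), its messenger share 4.73% (others 3.24% to 3.52%) and its transfer RNA share 0.0276% (others 0.0152% to 0.0174%). Among messengers it held 11127 CPM of mt-Co1 (others 7640 to 8111), 4642 CPM of mt-Nd4 (others 3321 to 3562) and 9511 CPM of mt-Cytb (others 6917 to 7373). Among transfer RNA genes it held 32.9 CPM of mt-Ta (others 18.1 to 21.7), 46.8 CPM of mt-Tc (others 28.3 to 32.5) and 87.7 CPM of mt-Tp (others 48.7 to 55.4). It also held 0.987 CPM of mt-Ts2 (others 0.601 to 0.705) and 1.71 CPM of mt-Tl2 (others 0.453 to 0.817). This library is also high in choroid plexus markers, and the part of these cells in its values was not tested.

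Replicate 5 of the 20-month treadmill group had a share of 5.95% (others 4.41% to 4.80%), a messenger share of 4.66% (others 3.38% to 3.69%) and a transfer RNA share of 0.0262% (others 0.0165% to 0.0188%). It held 7945 CPM of mt-Nd1 (others 5372 to 6022), 1962 CPM of mt-Nd6 (others 1457 to 1529) and 48.4 CPM of mt-Tc (others 32.5 to 36.4). Replicate 2 of the 20-month controls held 46.0 CPM of mt-Tl1 (others 24.8 to 30.8) and 67.7 CPM of mt-Tp (others 50.7 to 54.5). Neither of these 2 libraries is among those high in choroid plexus markers.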

How the results depend on the processing

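Leaving out the 5 choroid-rich libraries moved the treadmill difference at 5 months to 1.09 percentage points of all counts and the messengers' median to 0.30, and gave 32 genes called for age in treadmill mice and 147 for the average age effect. Of the 16945 genes fitted, DESeq2 called 44 for age in controls, 187 for age in treadmill mice and 657 for the average age effect. Of the 26 members fitted, it called 1, mt-Ts1, in the last of these. Fitting only the libraries compared gave 4 genes for age in controls. Leaving out single libraries gave 29 to 82 genes for age in treadmill mice, moving the count by over 1.5 times for replicates 1, 3, 4 and 5 of the 5-month and 1 and 5 of the 20-month treadmill group. It gave 154 to 472 for the average age effect, moving the count that far for replicates 1, 3 and 5 of the 5-month treadmill group, 5 of the 5-month controls, 5 of the 20-month treadmill group and 4 of the 20-month controls. There 0 to 1 members were called, the 1 being mt-Ts1 without replicate 2 of the 5-month treadmill group. The messengers' medians changed sign on leaving out 1 library in 5 of the 7 comparisons, the exceptions being the interaction and age in controls. The within-group SD of log2 CPM, used in place of the covariance, was 0.24 for mt-Co1 and 0.27 for mt-Rnr2. With words of 30 bases, chosen after seeing the data, 5 members shared over 90% of their words, as with 50. No paired analysis was possible because replicate numbers only follow accession order. Depth limits the scarce transfer RNA genes, with 7 to 31 counts per library for mt-Tv and 8 to 39 for mt-Ts2.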
